A study of Mus musculus with 120 samples.

Results

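The killer lectin-like receptors are a family of C-type lectin-like proteins encoded by the Klr genes, and their transcripts were followed in biopsies of an implanted scaffold in mice that did or did not develop autoimmune diabetes. Members were taken by gene name, as every annotated gene whose symbol begins with Klr followed by a letter from a to k, with named pseudogenes left out. The rule gave 27 members among 55487 genes measured in every sample, and all 27 lie on mouse chromosome 6. Of these, 25 stand together at chr6:128609227-131247362 (GRCm38), a stretch of 2.638 Mb known as the natural killer gene complex, while Klrg1 (chr6:122270596-122282882) and Klrg2 (chr6:38625693-38637242) lie outside it.

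Most of these receptors sit on natural killer (NK) cells and on subsets of T cells, where they read ligands on neighbouring cells and either restrain or trigger killing. Inhibitory members carry a signalling motif that recruits phosphatases, and activating members pair with the adaptors Tyrobp (DAP12) or Hcst (DAP10). The Ly49 receptors (Klra) and the CD94 and NKG2 heterodimers (Klrd1 with Klrc1, Klrc2 or Klrc3) read MHC class I or its peptides, NKG2D (Klrk1) reads stress-induced ligands, and the NKR-P1 receptors (Klrb1) read C-type lectins of the Clec2 family. The Ly49 gene set differs between mouse strains, and that of NOD is not that of C57BL/6, on which the reference annotation is built.

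The study implanted microporous poly(caprolactone) scaffolds, called immunological niches (INs), under the skin of female NOD/ShiLtJ mice, which develop autoimmune diabetes spontaneously, and of female NOR/LtJ mice, a related strain that shares the diabetogenic MHC locus and stays normoglycemic. INs were placed at 4 weeks of age and explanted and replaced from 6 weeks on, and total RNA of 120 of them was sequenced. NOR gave 23 samples from 5 mice at 5 ages 4 weeks apart, the first at 6 weeks and the last at 22. NOD mice that became hyperglycemic (progressors) gave 58 samples from 10 mice at 6 weeks of age, at 7, 5, 3 and 1 weeks before onset and at onset, and NOD mice that did not (nonprogressors) gave 39 samples. Of those 39, 33 came from 11 numbered mice at 6 to 22 weeks of age, and 6 carry only the days since implantation (31, 38 or 108). Those 6 were kept out of the comparisons of groups and times, and entered only the slopes on cell type markers fitted in all 97 NOD samples. NOR was sequenced in batch 1 only, as were the nonprogressors at 10, 18 and 22 weeks, while all 8 samples at 7 weeks before onset were in batch 2. Mouse numbers in the labels show which biopsies share an animal.

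The libraries of batch 1 held 4722396 to 56185434 counts and those of batch 2 held 29029239 to 43880986. The tissue was what a subcutaneous foreign body implant holds: the summed level of 9 macrophage markers had a median of 6194 CPM (a count as a share of the library total scaled by TMM) and that of 5 fibroblast markers a median of 28329 CPM, against 16.4 CPM for 8 NK cell markers, 11.8 CPM for 8 T cell markers and 10.3 CPM for 5 plasmacytoid dendritic cell markers. The 18-week library of NOR mouse 5 held only 15 counts of the whole family, most of them of Klrk1 and Klrg2. Its CPM values are therefore coarse.

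The family was detected at a low level. The 27 members together gave 70760 counts over all samples, with a lowest value of 15, a median of 471 and a highest of 2657 counts in a sample. Klrk1, Klrg2, Klra9, Klrb1b, Klri2, Klra8, Klrb1c and Klrb1a held 65.3% of them. Klra6 (102 counts in all), Klri1 (224), Klrh1 (36) and Klrb1 (16) were too scarce to pass the filter on low counts in any comparison, so that a difference in these 4 was not detectable at this depth. Bulk samples do not separate cells, so fewer cells of a type and less RNA per cell cannot be told apart in any result given here.

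Per kilobase of exon, the order of levels was led by Ly49 genes rather than by Klrk1, whose annotated exons are long. Klra9 (Ly49I) had a median of 1.10 CPM per kb, Klra8 (Ly49H) 0.697, Klra10 (Ly49J) 0.628, Klrb1b (NKR-P1B) 0.529 and Klrg2 0.511, while Klrk1 stood twelfth of the family at 0.262. Klrd1, the CD94 chain shared by the NKG2 heterodimers, was at 0.272 CPM per kb, and its inhibitory partner Klrc1 (NKG2A) at 0.0428. Klra17 (Ly49Q) and Klra2 (Ly49B), which are known from plasmacytoid and other myeloid cells rather than NK cells, were at 0.451 and 0.110 CPM per kb.

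**Figure D1:**
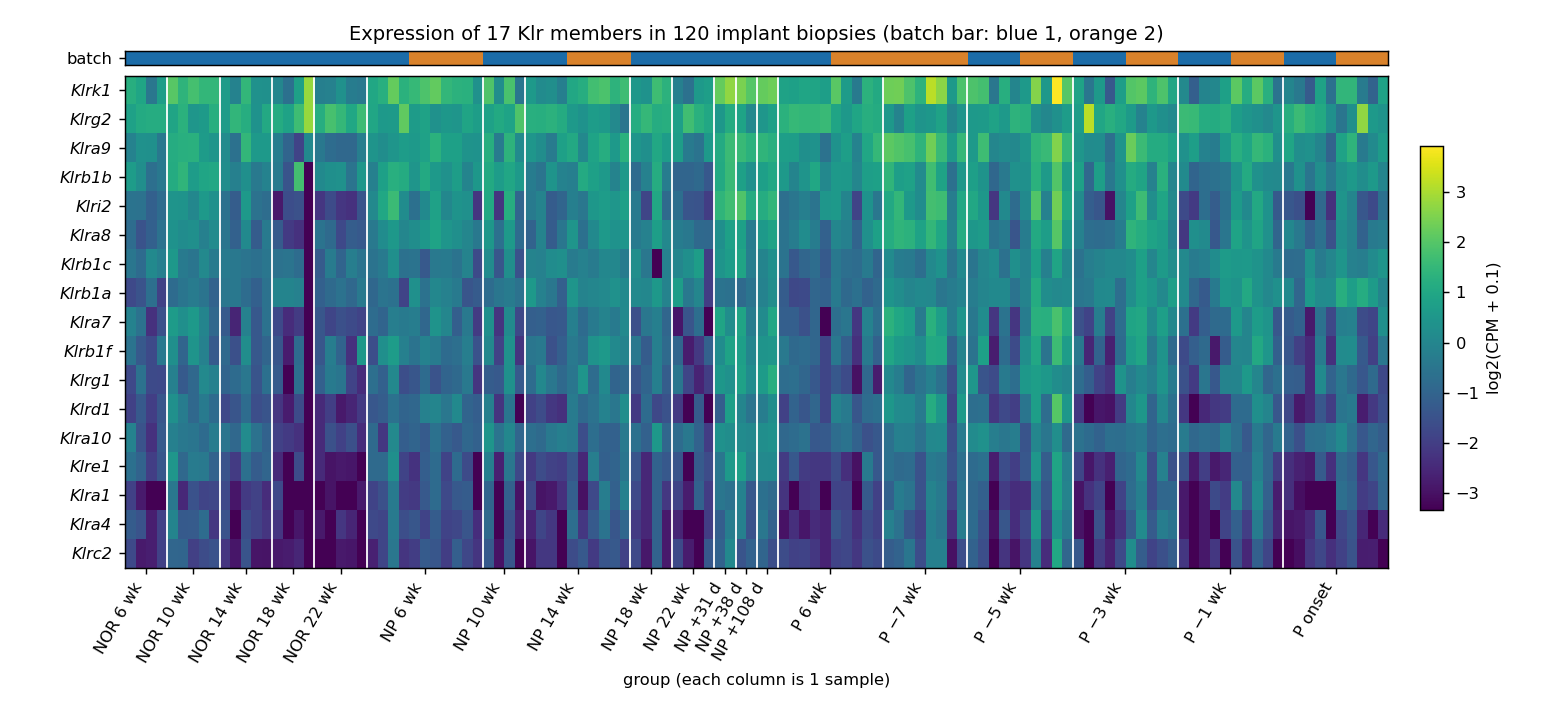
Heat map of 17 members (rows) in 120 samples (columns, ordered by group), with color for log2(CPM + 0.1) and a bar for the sequencing batch. Klrk1, Klrg2 and Klra9 are bright in most columns, Klrk1 is brightest (15.1 CPM) in a progressor sample at 5 weeks before onset, and the dark column among the 18-week NOR samples is the library with 15 counts of the family.

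Several members are near copies, which limits how far their counts can be separated. Of all 75-base windows in their annotated transcripts, 25.0% of those of Klrc1, 24.5% of Klrb1b, 23.5% of Klrc3, 19.7% of Klra8, 14.4% of Klra10, 13.2% of Klrb1c and 12.1% of Klra9 occur without a mismatch in another gene, against 3.35% of Klrb1a and none of Klrk1, Klrd1, Klre1, Klrg1 or Klrg2. For Klrb1b most of that overlap (23.8% of its windows) is with Gm44511, a transcript that reads through it. For Klrb1c, too, most of the overlap is with Gm44511 (11.4% of its windows), against 1.82% within the family, so its reads are not fully separable from that transcript. A pseudogene left out by the rule, Klra13-ps, drew 6981 counts, more than 24 of the 27 members. The following 90 bases of coding sequence from the Ly49 cluster show how close the copies are. They come from GENCODE M21 transcripts (GRCm38, minus strand, written 5′ to 3′), and capitals mark bases that differ from Klra9.
Klra9: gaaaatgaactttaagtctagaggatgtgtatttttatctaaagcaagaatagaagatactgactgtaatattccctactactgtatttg
Klra8: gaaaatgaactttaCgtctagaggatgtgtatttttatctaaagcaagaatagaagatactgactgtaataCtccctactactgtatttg
Klra10: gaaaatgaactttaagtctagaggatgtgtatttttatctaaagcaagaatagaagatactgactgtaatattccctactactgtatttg
Klra3: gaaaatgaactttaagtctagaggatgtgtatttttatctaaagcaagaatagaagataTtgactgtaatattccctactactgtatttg
These windows lie in exon 7 of Klra9 (chr6:130179021-130179110), exon 7 of Klra8 (chr6:130115567-130115656), exon 6 of Klra10 (chr6:130269241-130269330) and exon 7 of Klra3 (chr6:130323635-130323724), all coding. Klra8 differs from Klra9 at 2 of the 90 bases, Klra3 at 1 and Klra10 at 0, so a read that falls inside this window of Klra9 or Klra10 could have come from either gene. Values of single Ly49 genes are therefore uncertain, more so in NOD and NOR, whose copies were read against those of C57BL/6.

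NOD and NOR were compared first, within batch 1, to ask whether the at-risk strain differs from its control in this family. No member separated the strains. With the biopsies of each mouse summed, 9 NOD and 5 NOR mice were tested with edgeR's quasi-likelihood test, and 0 of the 23 members that passed the filter were called at an adjusted p under 0.05, against 8.98% of all genes tested. At an unadjusted p under 0.05 there were 3 members, against 23.4% of all genes, and DESeq2 also called 0. The differences ran from −0.57 to 0.44 on the log2 scale (NOD minus NOR), with a median of 0.07 and a median SE of 0.23.

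The 3 members with an unadjusted p under 0.05 were Klrd1, lower in NOD, and Klrb1a and Klra10, higher in NOD. Klrd1 was at 0.113, 0.192 and 0.407 CPM (lowest, median and highest) in the 9 NOD mice and at 0.257, 0.288, 0.321, 0.370 and 0.371 CPM in the 5 NOR mice, a difference of −0.57 ± 0.25 (log2, SE) with an adjusted p of 0.188 (edgeR). Klrb1a (NKR-P1A, an activating type receptor) was at 0.411, 0.675 and 0.866 CPM in NOD and at 0.423, 0.486, 0.501, 0.520 and 0.628 CPM in NOR, a difference of 0.40 ± 0.17 with an adjusted p of 0.155 (edgeR). The ranges of the strains overlap for both genes. Klra10 was at 0.403, 0.528 and 0.788 CPM in NOD and at 0.321, 0.389, 0.401, 0.467 and 0.501 CPM in NOR, a difference of 0.41 ± 0.17 with an adjusted p of 0.145 (edgeR).

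The strain means sum biopsies of different ages, and the direction for Klrd1 turned when the 6-week samples alone were used, to 0.55 ± 0.36 (adjusted p = 0.564, edgeR). There Klrb1a differed by 0.36 and Klra10 by 0.21, and 0 of 15 members were called (edgeR, 2 at an unadjusted p under 0.05, beside 13.6% of all genes).

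For Klrk1, the NKG2D gene, the 95% interval of the strain difference ran from −0.60 to 0.32 (log2), and for Klrg2 from −0.21 to 0.50. The summed level of the family was 9.84, 12.01 and 18.9 CPM in NOD mice (lowest, median, highest) and 11.8, 11.8, 12.5, 13.1 and 13.3 CPM in NOR mice. The NOR values of this sum sit inside the NOD range.

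**Figure D2:**
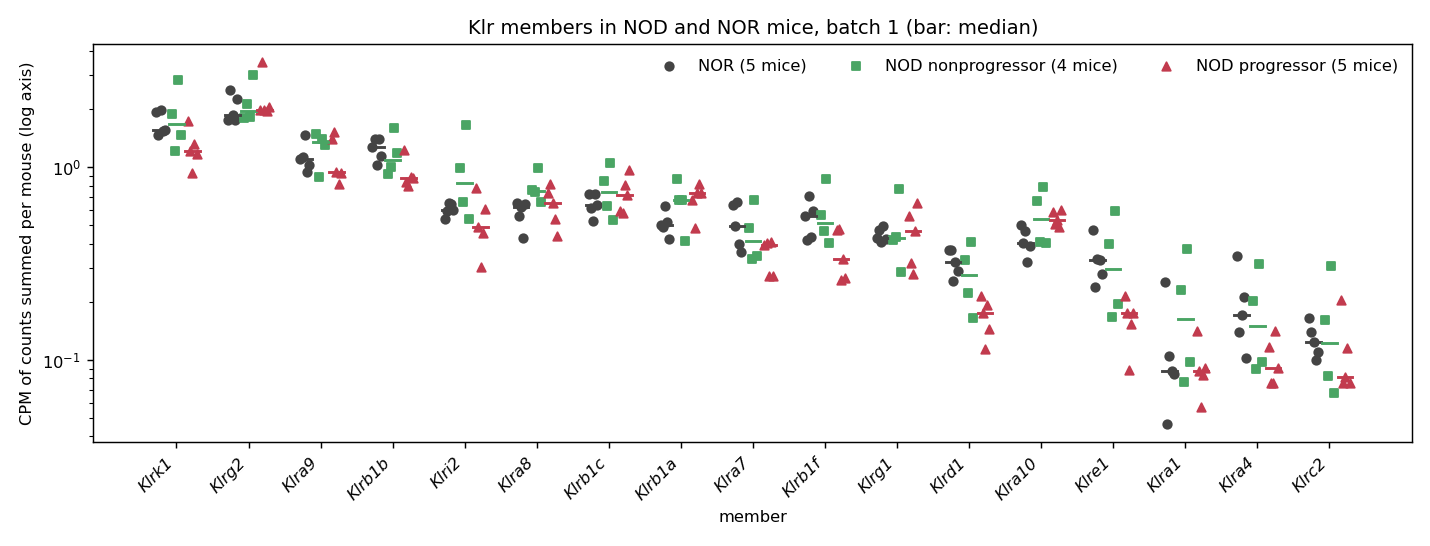
CPM of counts summed per mouse (log axis) for the named members in 5 NOR mice, 4 NOD nonprogressors and 5 NOD progressors of batch 1, with a bar at each median. NOD as a whole overlaps NOR in each member plotted, as for Klrk1 at 1.46 to 1.961 CPM in NOR and 0.931 to 2.83 CPM in NOD, and Klrd1 and Klre1 lie lowest in the progressors.

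With the NOD progressors alone set against NOR, Klrd1 and Klre1 were called, both lower, as 2 of 21 members against 4.79% of genes tested. Klre1 encodes a receptor that pairs with Klri1 or Klri2. Klrd1 was at 0.113 to 0.215 CPM in 5 progressors, below each NOR mouse (−0.93 ± 0.19, adjusted p = 0.0184, edgeR), and Klre1 was at 0.0880 to 0.215 CPM in progressors and 0.239 to 0.473 CPM in NOR (−1.03 ± 0.25, adjusted p = 0.0421, edgeR). In the 4 nonprogressors 0 of 21 members were called against NOR (edgeR, 2 at an unadjusted p under 0.05), beside 6.26% of genes tested. The differences there were −0.20 ± 0.26 for Klrd1 and 0.02 ± 0.38 for Klre1, and progressors and nonprogressors after 6 weeks did not pass the test against each other for either gene (given with the groups within NOD). The ages behind this comparison are not matched. NOR mice were sampled at 10 weeks, the age at which both genes were highest in NOR, while the later progressor samples were timed from onset. At 6 weeks, with all NOD mice of the batch, the differences from NOR were 0.55 ± 0.36 and −0.0011, so age and strain cannot be told apart in this result. Among NK cell markers Prf1, the perforin gene, was at 0.591 to 2.06 CPM in progressors and 1.46 to 3.50 CPM in NOR, and Ncr1 (NKp46) at 0.465 to 1.12 and 0.617 to 1.03 CPM. With all NOD mice against NOR, these 2 had the largest and smallest differences of the 8 listed NK cell markers (−0.72 and −0.09). All 8 were lower in NOD there, and none was called. The part of NK cell markers in the result was not tested.

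Among partner genes of the receptors, 3 were called between the strains. Clec2g, a lectin of the Clec2 family that NKR-P1 receptors read, was at 1.09, 1.35 and 1.98 CPM in NOD and at 0.643, 0.740, 0.771, 0.899 and 1.02 CPM in NOR, higher in each NOD mouse than in any NOR mouse (0.86 ± 0.16, adjusted p = 0.00276, edgeR). Ulbp1, an NKG2D ligand, was at 15.9, 18.6 and 19.5 CPM in NOD and at 14.8, 15.3, 15.9, 16.4 and 16.8 CPM in NOR (0.20 ± 0.05, adjusted p = 0.0202, edgeR). Inpp5d, the SHIP1 phosphatase that acts downstream of inhibitory receptors, was at 132, 146 and 152 CPM in NOD and at 151, 159, 166, 170 and 171 CPM in NOR (−0.19 ± 0.04, adjusted p = 0.00965, edgeR). These made 2 of 14 tested ligands higher and 1 of 8 adaptors and signalling genes lower in NOD.

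The other partners on the list did not pass the test. Clec2d, the ligand of NKR-P1B, was at 43.5, 56.3 and 62.2 CPM in NOD and at 59.99, 63.8, 64.8, 65.0 and 74.8 CPM in NOR (−0.27 ± 0.09, adjusted p = 0.0598, edgeR). H2-T23, which encodes the Qa-1 ligand of CD94 and NKG2, differed by 0.07 ± 0.07, Tyrobp by −0.02 ± 0.10 and Hcst by −0.03 ± 0.08. Among cell type markers, 0 of 8 NK cell, 0 of 5 plasmacytoid dendritic cell, 0 of 5 B cell, 0 of 5 fibroblast, 0 of 5 adipocyte, 0 of 5 epidermis and 0 of 5 skeletal muscle genes were called. Those called were lower in NOD: Cd4 of 8 T cell markers, C1qa, C1qb, C1qc and Csf1r of 9 macrophage markers and Csf3r of 5 neutrophil markers.

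Progressors and nonprogressors were compared next, to ask whether the family differs between NOD mice by outcome. At 6 weeks of age, 0 of 14 members were called between 10 progressors and 11 nonprogressors (edgeR, batch as a covariate), with 1 at an unadjusted p under 0.05 (5.16% of all genes) and 0 by DESeq2, against 0.0% of all genes. Klrk1 was at 0.690, 1.75 and 4.12 CPM in progressors and at 1.16, 2.41 and 4.54 CPM in nonprogressors (−0.50 ± 0.25, adjusted p = 0.891, edgeR). Klrb1a was at 0.197, 0.402 and 0.674 CPM in progressors and 0.175, 0.563 and 1.14 CPM in nonprogressors (−0.46 ± 0.25, adjusted p = 0.891, edgeR). The ranges overlap for both genes.

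After 6 weeks, with the biopsies of each mouse summed, 0 of 23 members were called between 10 progressors and 10 nonprogressors (edgeR), with 1 at an unadjusted p under 0.05 (9.51% of all genes) and 0 by DESeq2, against 0.0132% of all genes. The difference was −0.04 ± 0.21 for Klrk1, −0.16 ± 0.28 for Klrd1, −0.10 ± 0.33 for Klre1 and 0.25 ± 0.13 for Klrb1a, the last with an adjusted p of 0.554 (edgeR).

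Within progressors, the family changed over the 6 time points from 6 weeks of age to onset, and its members did not move alike. The NKR-P1 genes Klrb1a and Klrb1c rose and stayed high, while Klrk1 and Klri2 were lower at onset than at 5 weeks before it in 9 of 10 mice. In an F test over the 6 times (edgeR, 58 samples, batch as a covariate), 13 of 22 members were called, against 35.6% of all genes tested. The 13 were Klrg1, Klrk1, Klrd1, Klrb1c, Klrb1a, Klri2, Klre1, Klrc2, Klra7, Klra10, Klra4, Klra1 and Klra8. With each mouse as a block, 8 were called, and without the 6-week samples 1 was (Klri2). The share of all genes called in these refits is not given here, so the lower counts are not read as particular to the family.

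Klrb1a had the steepest rise. It was at 0.197, 0.402 and 0.674 CPM (lowest, median, highest of 10 mice) at 6 weeks of age, at 0.581, 0.966 and 2.08 CPM 5 weeks before onset and at 0.421, 1.21 and 2.24 CPM at onset. The onset sample was above the 6-week sample of the same mouse in 10 of 10 mice, and 1 of the 10 onset samples fell inside the 6-week range. The change was 1.66 ± 0.21 on the log2 scale (adjusted p = 3.73e-08, edgeR), 1.66 ± 0.36 within batch 1 and 1.69 ± 0.27 within batch 2.

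Klrb1c, which encodes the NK1.1 antigen of C57BL/6 mice, rose with it. It was at 0.296, 0.497 and 0.673 CPM at 6 weeks and at 0.490, 0.851 and 1.28 CPM at onset, higher at onset in 9 of 10 mice (0.82 ± 0.19, adjusted p = 0.000485, edgeR). The change was 0.80 within batch 1, where the call was lost, and 0.86 ± 0.27 within batch 2, and 2 of the 10 onset samples fell inside the 6-week range. At 5 weeks before onset it was already at 0.545, 0.927 and 1.77 CPM, above the 6-week value of the same mouse in 10 of 10. Klri2, an activating partner of Klre1, went the other way, from 0.179, 0.702 and 1.37 CPM at 6 weeks to 0, 0.293 and 1.24 CPM at onset, lower in 8 of 10 mice (−1.14 ± 0.46, adjusted p = 0.0441, edgeR). Within batches its change was −1.73 in batch 1 and −0.46 in batch 2, neither called.

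These 3 were the members called between onset and 6 weeks, of 22 tested, against 39.6% of all genes. The other 19 differed by −0.93 to 0.45. Klrk1 was lower at onset in 8 of 10 mice (−0.80 ± 0.41, adjusted p = 0.114, edgeR) and Klrd1 in 8 of 10 (−0.93 ± 0.49, adjusted p = 0.122, edgeR). Of the NK cell markers 0 of 8 were called in this comparison, with a median of −0.44, so no rise of these markers was called beside that of Klrb1a and Klrb1c. Markers of other cell types moved: 5 of 5 fibroblast markers fell, and 4 of 5 B cell and 2 of 7 tested T cell markers rose, and their part in the result was not tested.

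Of 14 ligands tested over the same interval 5 rose and 2 fell, beside 39.6% of all genes called. Clec2d, the ligand of NKR-P1B, went from 44.7, 79.6 and 127.4 CPM at 6 weeks (lowest, median, highest) to 15.8, 59.7 and 88.1 CPM at onset (−0.56 ± 0.19, adjusted p = 0.0179, edgeR), with overlapping ranges. Its relatives Clec2i, a ligand of NKR-P1F, and Clec2f rose by 1.28 ± 0.24 and 2.55 ± 0.33 (log2), the NKG2D ligand H60b by 0.73 ± 0.23, and the class I gene H2-D1, which Ly49 receptors read, by 0.37 ± 0.11. Of the cadherins that Klrg1 binds, Cdh1 rose by 2.78 ± 0.61 and Cdh2 fell (−1.94 ± 0.21). Of 8 adaptors and signalling genes, Zap70 (0.87 ± 0.25), Vav1 (0.36 ± 0.08), Syk (0.35 ± 0.08) and Inpp5d (0.20 ± 0.08) rose and Ptpn11 fell (−0.14 ± 0.05), while Tyrobp and Hcst were not called. These genes are expressed well beyond NK cells. Their change after 6 weeks was not called different from that in nonprogressors for any of them, beside 0.0% of all genes (edgeR). Adjusted p there was 0.614 for Clec2i, 0.757 for Cdh1 and 0.996 for Clec2f (edgeR). Over the ages of NOR, Clec2f (adjusted p = 0.00116), Cdh1 (0.00563), Cdh2 (0.0424) and Inpp5d (0.0385) were called too (edgeR, F test).

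Klrb1a and Klrb1c lie in the same gene complex, with Klrb1 between them, and their promoters resemble each other. The sequences are shown because these 2 rose together. The 250 bases upstream of each start site were taken from RefSeq (GRCm38.p6, minus strand, written 5′ to 3′), at chr6:128622935-128623184 for Klrb1a and chr6:128788642-128788891 for Klrb1c. In GENCODE M21 both genes start further upstream, at 128623533 and 128789215, so both windows lie inside its gene spans. Capitals mark bases of the aligned stretch that have no match in the other promoter.
Klrb1a: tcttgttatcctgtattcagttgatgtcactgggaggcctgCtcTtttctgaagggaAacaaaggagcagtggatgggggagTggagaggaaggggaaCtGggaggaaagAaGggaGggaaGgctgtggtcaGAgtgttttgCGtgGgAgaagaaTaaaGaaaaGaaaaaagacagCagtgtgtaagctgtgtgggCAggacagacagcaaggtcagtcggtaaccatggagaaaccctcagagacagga
Klrb1c: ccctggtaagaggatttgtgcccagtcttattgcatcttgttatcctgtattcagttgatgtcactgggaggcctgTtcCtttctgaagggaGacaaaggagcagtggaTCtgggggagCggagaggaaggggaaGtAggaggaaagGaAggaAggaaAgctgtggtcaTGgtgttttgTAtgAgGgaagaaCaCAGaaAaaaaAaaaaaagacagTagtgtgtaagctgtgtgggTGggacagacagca
The aligned stretch is 215 bases long, of which 188 (87.4%) are identical, against 59.2% between Klrb1a and Klrb1b. The median over 40 pairs of member promoters, each with at least 200 aligned bases, was 67.7%. Closer pairs were Klrc2 with Klrc3 (98.1%), Klra3 with Klra9 (95.7%) and Klra5 with Klra6 (92.3%). The part of the promoters in the rise was not tested. Each of the Klrb1a and Klrb1c promoters holds 1 match to TGTGGT, the letters bound by RUNX factors, searched on both strands. Of the 24 members with a promoter in the table, 8 (33.3%) hold it, against 14.2% of 27025 promoters of the same length. Near copies count separately among the 8, such as Klrb1a with Klrb1c and Klrc2 with Klrc3. The T-box letters GGTGTG can overlap that motif, but no member promoter holds both. They were in 4 of the 24 (16.7%), against 16.2% of all promoters. A match describes the letters alone.

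The rise of Klrb1a was not shown to be particular to progressors. In nonprogressors its change from 6 weeks to 10 to 22 weeks of age was 0.74 ± 0.28 (adjusted p = 0.0539, edgeR), and in NOR it was 1.05 ± 0.29 (adjusted p = 0.324, edgeR). The change after 6 weeks was larger in progressors than in nonprogressors by 0.59 ± 0.30, which did not pass the test of that difference (adjusted p = 0.776, edgeR). In that test 0 of 23 members were called (edgeR), with 1 at an unadjusted p under 0.05 (6.41% of all genes) and 0 by DESeq2, against 0.0% of all genes. INs taken at 6 weeks were the first explanted, and later ones came from a rotation of implant sites. Labels of the numbered mice do not give the time an IN had spent in the tissue. Its part in the changes after 6 weeks was not tested in any group.

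**Figure D3:**
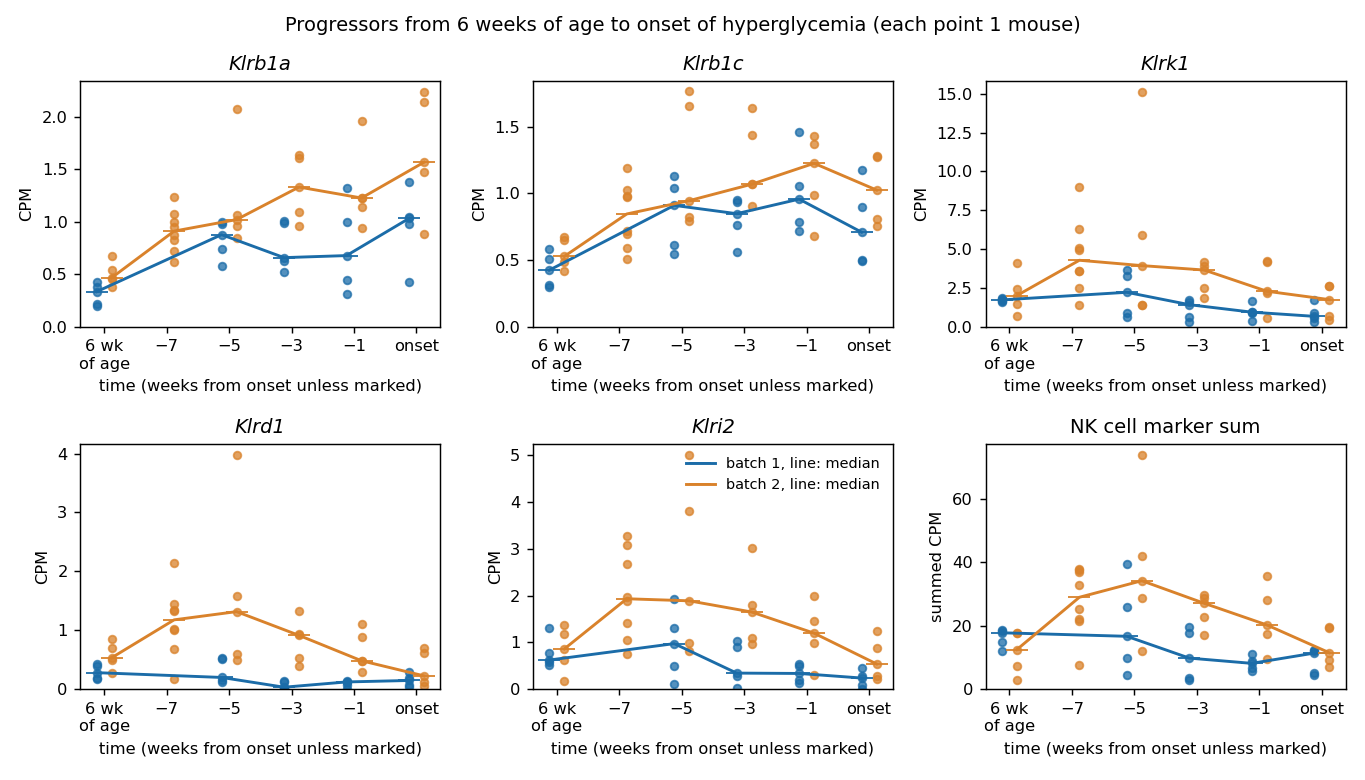
CPM of members and summed CPM of NK cell markers in progressors by time (weeks from onset, after 6 weeks of age), with a point for each sample and a line at the median of each batch. Klrb1a rises from a median of 0.402 CPM at 6 weeks to 1.21 CPM at onset, while Klrk1 has its highest sample (15.1 CPM) at 5 weeks before onset.

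From 5 weeks before onset to the times after it, most members were lower. Klrk1 was at 0.630, 2.74 and 15.1 CPM at 5 weeks before onset (10 mice) and at 0.324, 0.793 and 2.62 CPM at onset, lower at onset in 9 of 10 mice. Klrd1 was at 0.121, 0.527 and 3.97 CPM and then at 0.0401, 0.173 and 0.696 CPM at onset, lower in 8 of 10. Klri2 was at 0.121, 1.15 and 5.00 CPM and then at 0, 0.293 and 1.24 CPM, lower in 9 of 10. The ranges of the 2 times overlap for each of the 3 genes, and the direction within mice is given beside them for that reason. In nonprogressors, from 10 to 22 weeks of age, Klrk1, Klrd1 and Klri2 were also each lower in 3 of 4 mice. Their median changes there were −1.03, −0.91 and −1.41 (log2), and in NOR all 3 genes were lower in 5 of 5 mice. Progressors also aged toward onset, and the part of age in their fall was not tested.

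Set against the mean of 3 weeks before onset, 1 week before onset and onset, Klrd1 alone was called, lower by −1.43 ± 0.34 (adjusted p = 0.0417, edgeR), as 1 of 22 members against 0.385% of all genes. Klri2 differed by −1.31 ± 0.33 (adjusted p = 0.0539, edgeR) and Klrk1 by −1.17 ± 0.30 (adjusted p = 0.0586, edgeR), and DESeq2 called these 2 as well. At an unadjusted p under 0.05 there were 18 of 22 members, against 14.2% of all genes, and the median over the 22 was −0.79. The members furthest from this pattern were Klrb1a at 0.12 ± 0.17, Klrb1c at −0.05 ± 0.15, Klra2 at −0.06 ± 0.32 and Klrg2 at 0.36 ± 0.24.

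That call rests on 1 library. Progressor mouse 8 at 5 weeks before onset held 63.5 CPM of the family, with 73.7 CPM of NK cell and 71.0 CPM of T cell markers, each the highest of the 10 samples at that time. Without it the Klrd1 difference was −1.04 (adjusted p = 0.238, edgeR), 0 members were called by edgeR, and 9 of 22 had an unadjusted p under 0.05. The call was also lost with the mouse as a block (−1.34, adjusted p = 0.0699, edgeR), without the filter and without the batch term.

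NK cell markers moved with this fall. In the same contrast 1 of 8 was called (Ncr1, NKp46, at −1.39 ± 0.34, adjusted p = 0.0442, edgeR), all 8 differed by −0.81 to −1.39, and their summed level was 4.51, 27.2 and 73.7 CPM at 5 weeks before onset and 4.45, 11.45 and 19.5 CPM at onset. T cell markers differed by a median of −0.25, with 0 of 7 tested called, where Cd4 differed by −1.21 ± 0.31 (adjusted p = 0.0539, edgeR) and Cd8a by −0.88 ± 0.32. Plasmacytoid dendritic cell markers did not move alike. Siglech differed by −0.95 ± 0.26 (adjusted p = 0.0641, edgeR), Pacsin1 by −0.52 and Ccr9 by −0.25, while Cox6a2 differed by 0.64 and Ly6d by 0.80. The neutrophil markers S100a8 and S100a9 differed by −0.81 ± 0.30 and −1.07 ± 0.41, and Csf3r and Cxcr2 by −0.09 and −0.15. The part of cell numbers in the change of the receptors was not tested.

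The samples at 7 weeks before onset were all in batch 2 and stood at the high end. Klrk1 was at 1.39, 4.27 and 8.97 CPM, Klra9 at 1.39, 3.17 and 4.97 CPM, and Klra8 at 0.798, 2.13 and 2.66 CPM in these 8 samples. Against the mean of the later times, 0 of 22 members were called (edgeR, batch as a covariate), with 5 at an unadjusted p under 0.05 (19.7% of all genes), against 3.89% of all genes. DESeq2 called 1 (Klrb1a, higher later). Klrk1 was lower later by −0.71 ± 0.34 (adjusted p = 0.235, edgeR) and Klrb1a higher by 0.57 ± 0.19 (adjusted p = 0.0746, edgeR). A fit within batch 2 gave differences of −0.63 ± 0.38 for Klrk1 and 0.56 ± 0.18 for Klrb1a (adjusted p = 0.0513, edgeR). It called 0 of 22 members, with 4 at an unadjusted p under 0.05, beside 20.95% of all genes. The samples 7 weeks before onset of progressor mice 1 to 4 are in that fit, while the other samples of these mice are in batch 1. These mice therefore have no later sample in it, and the fit compares partly different animals.

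The other members called over the progressor time course were mostly Ly49 genes, and they are given by batch because batch 2 alone holds the samples 7 weeks before onset. Klra7 (Ly49G, inhibitory) had medians of 0.524 CPM at 6 weeks, 2.29 CPM at 5 weeks before onset and 0.774 CPM at onset in batch 2, and of 0.361, 0.574 and 0.326 CPM in batch 1. It was called within batch 2 (adjusted p = 0.00698, edgeR) and not within batch 1 (adjusted p = 0.818, edgeR). Klra4 (Ly49D, activating) had medians of 0.192, 0.671 and 0.0855 CPM at those times in batch 2 and of 0.0624, 0.270 and 0.0401 CPM in batch 1, where it was too low to be tested.

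Klra8 was called within batch 2 (adjusted p = 0.0212, edgeR) and not within batch 1 (adjusted p = 0.788, edgeR), and Klra10 was called within batch 1 (adjusted p = 0.0381, edgeR) and not within batch 2 (adjusted p = 0.385, edgeR). Klrg1, an inhibitory receptor for cadherins found on mature NK and effector T cells, had medians of 0.215, 1.35 and 0.457 CPM at 6 weeks, 5 weeks before onset and onset in batch 2 and of 0.423, 0.520 and 0.359 CPM in batch 1. Its call held within batch 2 (adjusted p = 0.00122, edgeR) but not within batch 1 (adjusted p = 0.928, edgeR) or with the mouse as a block (adjusted p = 0.0633, edgeR). Klra1 (adjusted p = 0.0769) and Klra8 (adjusted p = 0.0786) also lost the call under the block (edgeR). Whether the time course differs between batches was not tested.

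In nonprogressors, age was compared within the 33 samples of numbered mice. Klrb1b, an inhibitory receptor for Clec2d, was the member called, lower at 10 to 22 weeks than at 6 weeks by −0.66 ± 0.22 (adjusted p = 0.0324, edgeR), as 1 of 20 against 24.1% of all genes. It was at 0.784, 1.40 and 2.28 CPM (lowest, median, highest) in 11 mice at 6 weeks, and at 0.298, 0.416, 0.416 and 0.453 CPM in the 4 mice at 22 weeks, all below the 6-week range. In between, it was at 1.38, 1.49, 1.86 and 2.00 CPM at 10 weeks and at 0.477, 0.724, 0.817 and 2.14 CPM at 18 weeks. The difference was −0.999 ± 0.281 within batch 1 and −0.02 within batch 2, which holds no nonprogressor age after 14 weeks.

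The call on Klrb1b was lost without nonprogressor mouse 2 or mouse 4 (adjusted p up to 0.202, edgeR) and without the filter (adjusted p = 0.0519, edgeR). With the mouse as a block it was kept (−0.61 ± 0.21, adjusted p = 0.0443, edgeR) and Klrb1a was called too, higher with age by 0.81 ± 0.27 (adjusted p = 0.0354, edgeR). The fall of Klrb1b with age was larger than in NOR by −1.38 ± 0.51, which did not pass the test (adjusted p = 0.74, edgeR). In that comparison of age changes 0 of 18 members were called (edgeR), with 1 at an unadjusted p under 0.05 (6.05% of all genes) and 0 by DESeq2, against 0.0% of all genes.

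In NOR, the family was highest at 10 weeks of age and lowest at 18 to 22 weeks. Over the 5 ages 7 of 15 members were called (F test, edgeR), against 8.24% of all genes, and they were Klrd1, Klra9, Klri2, Klre1, Klra7, Klra10 and Klra8. Klri2 was at 0.929, 1.15, 1.22, 1.23 and 1.39 CPM in the 5 mice at 10 weeks and at 0.103, 0.121, 0.123, 0.216 and 0.265 CPM at 22 weeks (adjusted p = 0.000342, edgeR, over the 5 ages). Klrd1 was at 0.448, 0.477, 0.676, 0.728 and 1.14 CPM at 10 weeks and at 0.0405, 0.0688, 0.0818, 0.133 and 0.154 CPM at 22 weeks (adjusted p = 0.000622, edgeR). Each 10-week value stood above each 22-week value for both genes.

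Klra9 went from 1.27, 1.46, 2.14, 2.26 and 2.34 CPM at 10 weeks to 0.445, 0.447, 0.494, 0.654 and 0.751 CPM at 22 weeks (adjusted p = 0.00767, edgeR). Klre1 went from 0.382, 0.442, 0.658, 0.704 and 1.30 CPM at 10 weeks to 0, 0.0309, 0.0344, 0.0405 and 0.0818 CPM at 22 weeks (adjusted p = 0.00136, edgeR) and was close to 0 at the later age. Klra8 (0.786 to 1.20 CPM, then 0.202 to 0.572), Klra10 (0.475 to 0.783, then 0.0818 to 0.247) and Klra7 (0.446 to 1.48, then 0.177 to 0.286) did not overlap between the 2 ages either. At 6 weeks Klrd1 stood between them, at 0.156, 0.164, 0.285 and 0.305 CPM in 4 mice. Klrk1 went from 2.52 to 4.04 CPM at 10 weeks down to 0.663 to 1.17 CPM at 22 weeks, lower in 5 of 5 mice, but its adjusted p over the 5 ages was 0.0561 (edgeR). Without the coarse 18-week library of NOR mouse 5 it was 0.00658 (edgeR), and DESeq2 with that library gave 0.01998. Klrg2 went the other way, from 1.31, 1.44, 1.78, 2.23 and 2.39 CPM at 10 weeks to 1.89, 2.17, 2.75, 3.01 and 3.39 CPM at 22 weeks, higher in 5 of 5 mice, without passing the test over the ages (adjusted p = 0.397, edgeR). The fall was also not seen in Klra2, at 0 to 0.159 CPM and then 0.0818 to 0.247 CPM. Klrb1a changed little between these 2 ages, at 0.382 to 0.704 CPM and then 0.368 to 0.663 CPM, but its median at 18 weeks was 0.835 CPM. Without the 18-week library of NOR mouse 5, Klrb1a (adjusted p = 0.0268) and Klra4 (adjusted p = 0.0358) were called too (edgeR). With that library DESeq2 called Klrb1a as well (adjusted p = 0.0456).

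Without the 10-week samples, and so with 5 fewer samples, 0 of 14 members were called by edgeR, with 6 at an unadjusted p under 0.05, beside 13.0% of all genes. The lowest adjusted p was then that of Klre1 (0.05004), followed by Klri2 (0.0525) and Klra10 (0.0741). The contrast of 10 to 22 weeks against 6 weeks, which averages over the peak, called 0 of 15 (edgeR, 2 at an unadjusted p under 0.05 beside 6.83% of all genes, 0 by DESeq2), against 0.0357% of all genes. NK cell markers moved over the same ages, with 7 of 8 called over the ages and a summed median of 12.2 CPM at 6 weeks, 34.8 CPM at 10 weeks and 5.66 CPM at 22 weeks. T cell markers had a summed median of 47.1 CPM at 10 weeks and 10.9 CPM at 22 weeks, with 0 of 7 tested called. Also called over the ages were Col1a1 and Col1a2 of 5 fibroblast, Mrc1 of 9 macrophage and Cxcr2 and S100a9 of 5 neutrophil markers, and the part of any of these cell types in the change of the receptors was not tested.

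**Figure D4:**
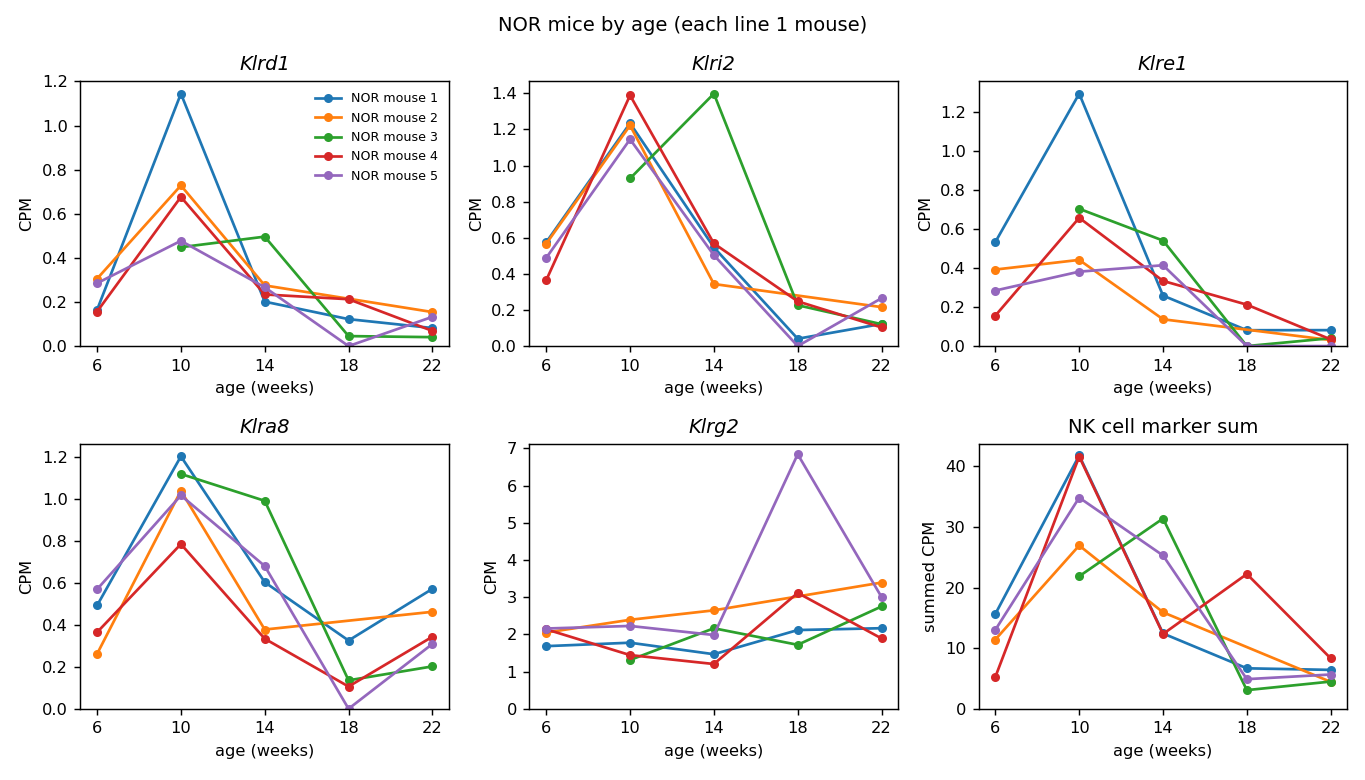
CPM of members and summed CPM of NK cell markers in NOR mice by age in weeks, with a line for each mouse. Klrd1 and Klri2 peak at 10 weeks and are low at 22 weeks, and Klrg2 does not follow them.

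To see which members varied with which cells among mice of 1 age, each gene was fitted against the summed NK cell markers in the 21 NOD mice at 6 weeks (edgeR, batch as a covariate). The slope is the log2 change per doubling of the markers, so that a gene that rises in proportion has a slope of 1. Of 14 members 4 were called, against 0.618% of all genes, and 11 had an unadjusted p under 0.05, against 8.78%. The 4 were Klri2 at 1.10 ± 0.15 (adjusted p = 0.000465, edgeR), Klrb1f at 0.82 ± 0.15, Klrk1 at 0.76 ± 0.08 (adjusted p = 2.49e-05, edgeR) and Klra8 at 0.52 ± 0.11. The slope of Klrk1 was 0.82 within batch 1 and 0.75 within batch 2, and that of Klri2 was 1.18 and 1.07. The markers share libraries with the members, so the slopes describe covariation and no more.

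Klrk1 is the member that followed NK cell markers most tightly for its error, and its promoter is shown for that reason (RefSeq, GRCm38.p6, chr6:129623865-129624114, minus strand, written 5′ to 3′). Capitals mark its 1 match to the RUNX letters TGTGGT.
Klrk1: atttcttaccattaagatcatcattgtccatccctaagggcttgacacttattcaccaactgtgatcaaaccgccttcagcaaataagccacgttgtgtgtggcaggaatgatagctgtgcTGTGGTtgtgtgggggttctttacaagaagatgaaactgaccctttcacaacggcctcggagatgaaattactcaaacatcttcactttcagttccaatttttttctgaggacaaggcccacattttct
No match to the T-box letters GGTGTG lies in this window.

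Not every member behaved so. Klrg2, a member of the family that lies far from the gene complex, had a slope of −0.07 ± 0.12, Klrb1a 0.26 ± 0.16 and Klra10 0.15 ± 0.15. In all 97 NOD samples, with group and batch terms and with biopsies of a mouse treated as separate, 20 of 23 members were called, against 19.1% of all genes. Of these 19 were positive, and Klrg2 was negative (−0.21 ± 0.07, adjusted p = 0.0219, edgeR), while Klrb1a was not called (0.08 ± 0.06). Against T cell markers 0 of 14 members were called at 6 weeks beside 0.147% of all genes, with 4 at an unadjusted p under 0.05 beside 12.5% (edgeR). Against plasmacytoid dendritic cell markers the count was 0 beside 8.09%, with 1 at an unadjusted p under 0.05 beside 23.1%, and against macrophage markers it was 0 beside 8.42%, with 0 beside 23.6% (edgeR). In all 97 samples 18 members were called against T cell markers (27.8% of all genes), 12 against plasmacytoid dendritic cell markers (41.5%) and 2 against macrophage markers (37.6%).

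**Figure D5:**
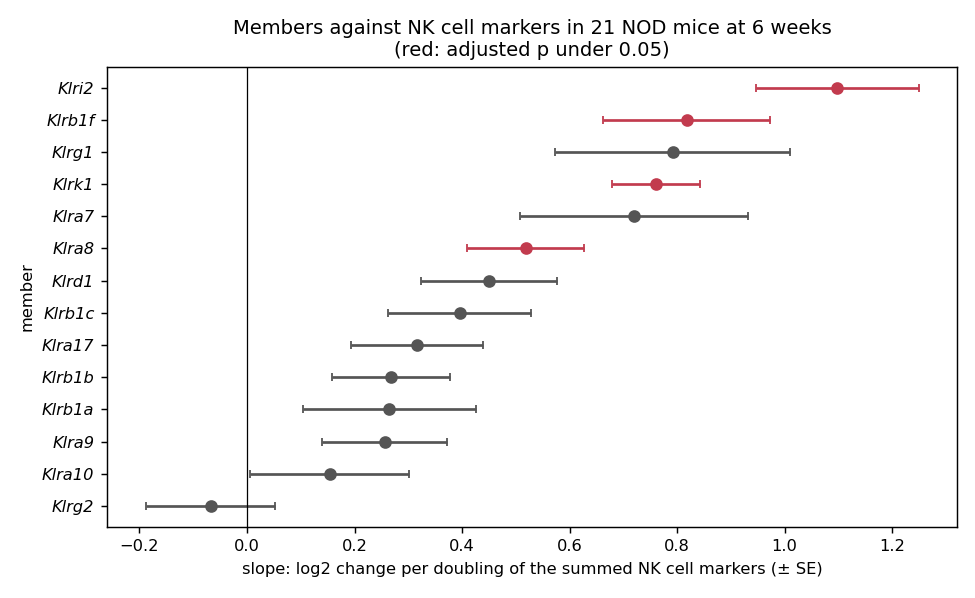
Slope (± SE) of each of 14 members on the summed NK cell markers (log2 change per doubling) in 21 NOD mice at 6 weeks, with the 4 called members in red. Klri2 lies at 1.10 and Klrk1 at 0.76, and Klrg2 is the member below 0.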

How the data were processed

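Total RNA libraries (ribosomal RNA depleted) from 120 IN explants were sequenced by the authors on 1 of 2 instruments, which define batch 1 and batch 2. The authors deposited an expected count per Ensembl gene and library, estimated by RSEM, as whole numbers with no normalization, in 1 table per batch. The submitters' processing notes name cutadapt, FastQC, STAR, RSEM, MultiQC and GRCm38, with no versions. Annotation release and strand setting are not given in the sources used here, so overlapping and antisense transcripts cannot be told apart. Coordinates came from GENCODE M21.

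R 4.3.3 and edgeR 4.0.16 were used for the tests, by quasi-likelihood after TMM scaling of genes kept by filterByExpr, with p-values adjusted by Benjamini-Hochberg over all genes tested and a threshold of 0.05. DESeq2 1.42.0, RLE scaling, no filter, batch terms, within-batch fits, a block on mouse and left-out mice or samples were alternatives. Tables and figures used Python 3.11.15 with pandas 2.3.3, numpy 2.4.6 and matplotlib 3.10.9. The edgeR test was tested on simulated data. Mice pair the samples by the numbers in the labels. Deviations of biopsies from the same mouse had a median correlation of −0.026, −0.018 and −0.025 in progressors, nonprogressors and NOR, against 0.017, −0.023 and −0.008 between mice. Different time points of a mouse are separate explants of 1 animal, so p-values over samples that ignore the mouse count them as independent. No samples were duplicates (lowest chi-square per degree of freedom 11.75 over 239 pairs).

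Members called in any comparison or among the 8 highest by summed count are named with values, 17 in all. Partner genes and cell type markers were fixed lists. The members and lists were chosen with earlier results of these data known.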

Additional observations from a re-analysis of the deposited data

Results flagged for a closer look

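Within groups of 4 to 10 samples, 105 pairs of a group and a quantity were tested for a sample far from the others, and 15 stood out. The cutoffs are set for about 1 in 20 pairs by chance in independent, normally distributed values. Low CPM values, and a family sum that holds its members, need not meet that. The 15 are therefore not read as an excess. NOR mouse 3 was high at 14 weeks, with 0.496 CPM of Klrd1 (group median 0.267), 1.40 CPM of Klri2 (0.547) and 19.4 CPM of the family (11.4), and at 22 weeks with 1.17 CPM of Klrk1 (0.777). NOR mouse 5 at 18 weeks, the library with 15 counts of the family, was at 0 CPM of Klrb1a (0.835) and 0 CPM of Klrb1c (0.533).

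Klrg2 stood out in 4 groups, with 3.72 CPM in nonprogressor mouse 4 at 10 weeks (group median 1.87), 2.75 CPM in nonprogressor mouse 2 at 18 weeks (2.18), 8.92 CPM in progressor mouse 2 at 3 weeks before onset (1.499) and 6.49 CPM in progressor mouse 7 at onset (1.69). Progressor mouse 10 was high in Klrk1 at 6 weeks (4.12 CPM, median 1.75). At 5 weeks before onset progressor mouse 8 was high in Klrk1 (15.1 CPM, median 2.74), Klrd1 (3.97 CPM, median 0.527) and the family (63.5 CPM, median 19.4), and progressor mouse 6 in Klrb1a (2.08 CPM, median 0.966).

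The 6 nonprogressor samples labelled by days since implantation, which no comparison of groups or times used, had 19.9, 26.9 and 34.2 CPM of the family (lowest, median, highest), against 5.57, 11.4 and 24.3 CPM in the 23 NOR samples. Their summed NK cell markers were also higher, at 36.2, 52.9 and 56.5 CPM against 3.08, 12.4 and 41.8 CPM. Their T cell markers were at 33.2, 46.5 and 61.1 CPM against 4.94, 14.6 and 56.7 CPM, and their fibroblast markers at 16150, 22322 and 27691 CPM against 21095, 32781 and 82338 CPM. In these 6 samples Klrk1 was at 3.91 to 6.56 CPM and Klri2 at 2.08 to 3.70 CPM, while Klrb1a was at 0.464 to 1.07 CPM and Klrg2 at 0.934 to 2.10 CPM. Nothing in the labels links them to a numbered mouse, and the difference was not tested.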

How the results depend on the processing

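For counts of called members, 124 alternatives were tried, of which 94 stayed within 1.5 times the count reported and 30 did not. For members called, 180 of 244 alternatives kept the call, 64 lost it and 0 turned its direction. For NOD against NOR the count was 2 with progressors alone, and 0 to 1 with a mouse left out, the 1 being Klra2 without NOR mouse 4. For NOR over 5 ages it was 0 without the 10-week samples (chosen after seeing the data) and 6 to 8 with a mouse left out, where Klra7 lost its call in 2 of 5 cases. For nonprogressors it was 2 by DESeq2, with RLE scaling and without the batch term, 0 without the filter, and 0 to 1 with a mouse left out (chosen after seeing the data). For the progressor time course it was 3 within batch 1 and, chosen after seeing the data, 1 without the 6-week samples and 10 without the library of progressor mouse 8 at 5 weeks before onset. Onset against 6 weeks gave 1 within batch 1 and 4 without that library, where Klra17 was added. The contrast with 5 weeks before onset gave 3 by DESeq2, and 0 within either batch, with no filter, with no batch term, without the 6-week samples and without that library (the last 2 chosen after seeing the data). Later times against 7 weeks before onset gave 1 by DESeq2, 5 without the batch term and 0 without that library. Slopes on NK cell markers gave 0 within batch 1, which holds 9 of the 21 mice, and 20 in all 97 samples. Slopes on T cell markers gave 1 within batch 2 and 18 in all 97 samples, on plasmacytoid dendritic cell markers 12 and on macrophage markers 2 in all 97. These counts are listed without the share of all genes called in the same fit, so they do not single out the family. The cause of these changes was not tested.

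With the mouse as a block, pairing the samples of each animal, the count was 8 for the progressor time course, 0 for the contrast with 5 weeks before onset and 2 for nonprogressors, and the block changed no other count by over 1.5 times. The calls of Klra1, Klra8, Klrc2, Klre1 and Klrg1 over the time course were lost under it.

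The family's low depth, with a median of 471 counts in a sample over 27 genes, limits what could be seen. Members at a few counts a sample did not pass the filter, Ly49 genes share sequence, and NOR and the nonprogressors at 10, 18 and 22 weeks were sequenced in 1 batch with 4 or 5 mice per age.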
